A study of Mus musculus with 9 samples.

Results

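Interferon-stimulated genes were examined in tumor cells sorted from 4T1, 4T07 and 67NR tumors. The 46 genes of the list encode interferon-induced antiviral proteins, GTPases and interferon signaling factors, and genes of antigen processing were left out of it. A gene entered when a probe carried its symbol in the platform annotation, which held for 41 of 46. Ddx60, Ifit1, Herc6, Ifi44 and Xaf1 had no probe paired with their symbol, and the probe of Ifih1, a sensor of viral RNA, was detected on 2 arrays and did not pass the filter on dim probes. The remaining 40 genes were tested among 10021 genes in all.

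4T1, 4T07 and 67NR are sister lines from a single mouse mammary tumor. In transplanted mice, 4T1 spreads widely, 4T07 seeds small deposits in the lung and 67NR does not metastasize. In each group 500000 untreated cells were placed in a mammary fat pad of female Balb/c mice carrying Ub-GFP, whose own cells are GFP-positive, and the tumors grew for 2 to 4 weeks to a mean diameter of 10 mm. Cells negative for both GFP and CD45 were sorted, and their RNA was hybridized to Illumina mouse bead arrays, 3 for each line. The hosts were immunocompetent, each group is a single line, and no source used here says whether each replicate came from its own mouse, so that the p-values measure the spread between these samples, which may be technical.

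Cells that sense viral RNA or stray DNA secrete type I interferons, which bind a receptor on the same and neighboring cells. Kinases of the JAK family then activate STAT factors, and a complex that holds STAT2 and IRF9 binds the interferon-stimulated response element (ISRE) in the promoters of antiviral genes. Interferon gamma, made by T and NK cells, acts on the gamma-activated site (GAS) and is a strong inducer of guanylate-binding proteins and immunity-related GTPases. In tumors these genes are commonly read as a sign of exposure to interferon or of the pathway being active in the tumor cells themselves.

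To show the sequences these factors read, promoters of the members were taken from RefSeq (GRCm38.p6), from 250 bases before to 50 bases after the transcription start. An entry was found for 35 of 46 genes. The core of the ISRE was searched on both strands as GAAA, any 2 bases and GAAA, and TTCNNNGAA, the core of the GAS, reads the same on either strand. The first occurred in 18 of 35 genes (51.4%), against 3.99% of all 27025 genes with a promoter entry. The second occurred in 11 of 35 genes (31.4%), against 9.55% of all. A match is a description of the sequence and not evidence of a bound site. The stretches below, on the strand of the gene, are from members with large differences between the lines (Rsad2, Isg15, Ifit3, Gbp7 and Igtp), from Irf1, which differed little, and from Socs1, which went the other way. Capitals mark the letters of either motif.
Rsad2, chr12:26456538-26456597, minus strand: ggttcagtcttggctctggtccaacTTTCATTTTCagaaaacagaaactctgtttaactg
Isg15, chr4:156200850-156200921, minus strand: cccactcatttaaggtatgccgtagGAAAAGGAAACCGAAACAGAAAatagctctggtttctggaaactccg
Ifit3, chr19:34583348-34583441, plus strand: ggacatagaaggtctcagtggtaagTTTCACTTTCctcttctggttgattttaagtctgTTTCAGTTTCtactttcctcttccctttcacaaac
Gbp7, chr3:142530205-142530317, plus strand: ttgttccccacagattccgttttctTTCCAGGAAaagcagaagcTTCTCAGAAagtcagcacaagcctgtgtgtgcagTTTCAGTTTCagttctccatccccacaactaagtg
Igtp, chr11:58199486-58199556, plus strand: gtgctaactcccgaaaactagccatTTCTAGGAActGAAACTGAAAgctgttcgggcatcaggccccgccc
Irf1, chr11:53769899-53769957, plus strand: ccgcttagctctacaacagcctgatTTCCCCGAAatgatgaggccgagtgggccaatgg
Socs1, chr16:10785579-10785644, minus strand: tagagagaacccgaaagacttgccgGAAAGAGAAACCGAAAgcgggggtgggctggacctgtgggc
Isg15 held 3 overlapping copies of the ISRE core, and Rsad2, Ifit3 and Gbp7 held it on the opposite strand, where it reads as TTTC, any 2 bases and TTTC. Gbp7 and Igtp carried both motifs, and Irf1 carried TTCNNNGAA only.

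The arrays were of like quality. Between 16025 and 17566 of 45281 probes were detected per array (detection p under 0.05), and median intensities were 89.9 to 140.2. The sort was checked against marker genes. Of the leukocyte and macrophage markers, Laptm5, Coro1a, Lyz2 and Cd14 were detected on all 9 arrays, and Cd53, C1qa and Adgre1 on none. Itgb2, a leukocyte integrin, was detected on all 3 arrays of 4T07 and on 0 of 4T1 and 67NR. The summed normalized intensity of the 6 leukocyte markers with a probe was 209 to 276 in 4T1, 259 to 309 in 4T07 and 344 to 526 in 67NR, and that of 8 macrophage markers was 426 to 569, 778 to 806 and 967 to 1366 in the same order. Of 3 T and NK cell markers, 0 were detected on all arrays of any line, and their sum was 74 to 85 in 4T1, 92 to 160 in 4T07 and 71 to 86 in 67NR. Leukocyte and macrophage sums were thus highest in 67NR, the line with the lowest levels of most members. The T and NK cell sum and Itgb2 were highest in 4T07, the line with the highest. Of 4 leukocyte markers tested in 4T07 against 67NR, however, 1 was higher and 2 were lower, beside 21.9% and 23.4% of all genes. None of the 3 T and NK cell markers passed the filter on dim probes, so that their sum is one of dim signals. The 11 epithelial markers summed to 39811 to 49692 in 4T1, 5076 to 8170 in 4T07 and 326 to 334 in 67NR, where 7 of 11 were detected on no array. In the same order of lines, 3 erythroid markers summed to 85 to 86, 82 to 89 and 267 to 484. The 3 neutrophil markers gave 216 to 304, 323 to 465 and 250 to 1697. For 10 fibroblast and pericyte markers the sums were 1013 to 1106, 2879 to 4406 and 2639 to 3597. For 8 endothelial markers they were 225 to 279, 224 to 295 and 271 to 279. The part that other cells or the epithelial state had in the results below was not tested.

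Most interferon-stimulated genes were higher in the metastatic lines than in 67NR, and 20 of 40 were lower in 4T1 than in 4T07. At an adjusted p under 0.05 (limma, Benjamini-Hochberg over all genes), 27 of 40 members were higher in 4T1 than in 67NR and 2 were lower, whereas the shares over all genes were 23.2% and 26.6%. In 4T07 against 67NR, 33 of 40 were higher and 1 was lower, beside 21.9% and 23.4% of all genes. In 4T1 against 4T07, 0 of 40 were higher and 20 were lower, beside 14% and 15.8% of all genes; at an unadjusted p under 0.05, 25 of 40 members and 3995 of 10021 genes differed here. The median log2 fold change of the members was 1.11 in 4T1 against 67NR, 1.79 in 4T07 against 67NR and -0.66 in 4T1 against 4T07, and the median over all genes was -0.05, -0.05 and -0.01. With genes that a line did not detect set to a bound (explained below for Irf7), and those undetected in both lines left out, the members' medians were 1.15, 1.79 and -0.64. At a minimum of 2-fold, 21 members were higher and 1 lower in 4T1 than in 67NR (11% and 10.9% of all genes), 28 higher and 0 lower in 4T07 than in 67NR (10.5% and 8.98%), and 0 higher and 11 lower in 4T1 than in 4T07 (4.7% and 5.28%). The arrays did not overlap for 26 members higher and 2 lower in 4T1 than in 67NR (27.4% and 31.3% of all genes), for 33 higher and 1 lower in 4T07 than in 67NR (25.5% and 28%) and for 1 higher and 26 lower in 4T1 than in 4T07 (21.7% and 23.3%). The comparisons share arrays, so their counts are not independent of each other. Oas1a and Oas3, counted as higher in 4T07 than in both other lines or as lower in 4T1, passed the filter on dim probes through the 4T07 arrays alone.

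The mean log2 intensity of the 40 genes was 8.73, 8.66 and 8.39 on the 4T1 arrays, 9.42, 9.31 and 9.39 on the 4T07 arrays and 7.74, 7.34 and 7.28 on the 67NR arrays. No array of one line overlapped those of another. By line means, 31 of 40 genes stood in the order 4T07, 4T1, 67NR from high to low, an order held by 16.2% of all genes. Neighbors in that order often did not pass the test: 13 genes were past the threshold in all 3 comparisons in this order, and 13 were higher in both metastatic lines with 4T1 against 4T07 not past it. Another 7 genes were higher in 4T07 but not past the threshold in 4T1 (Dhx58, Eif2ak2, Ifit3, Oas1a, Oas3, Trim21 and Zbp1), and Ifi27 was the 1 gene higher in 4T1 alone. Iigp1, Irf1, Irgm1 and Mx1 passed in no comparison.

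**Figure D1:**
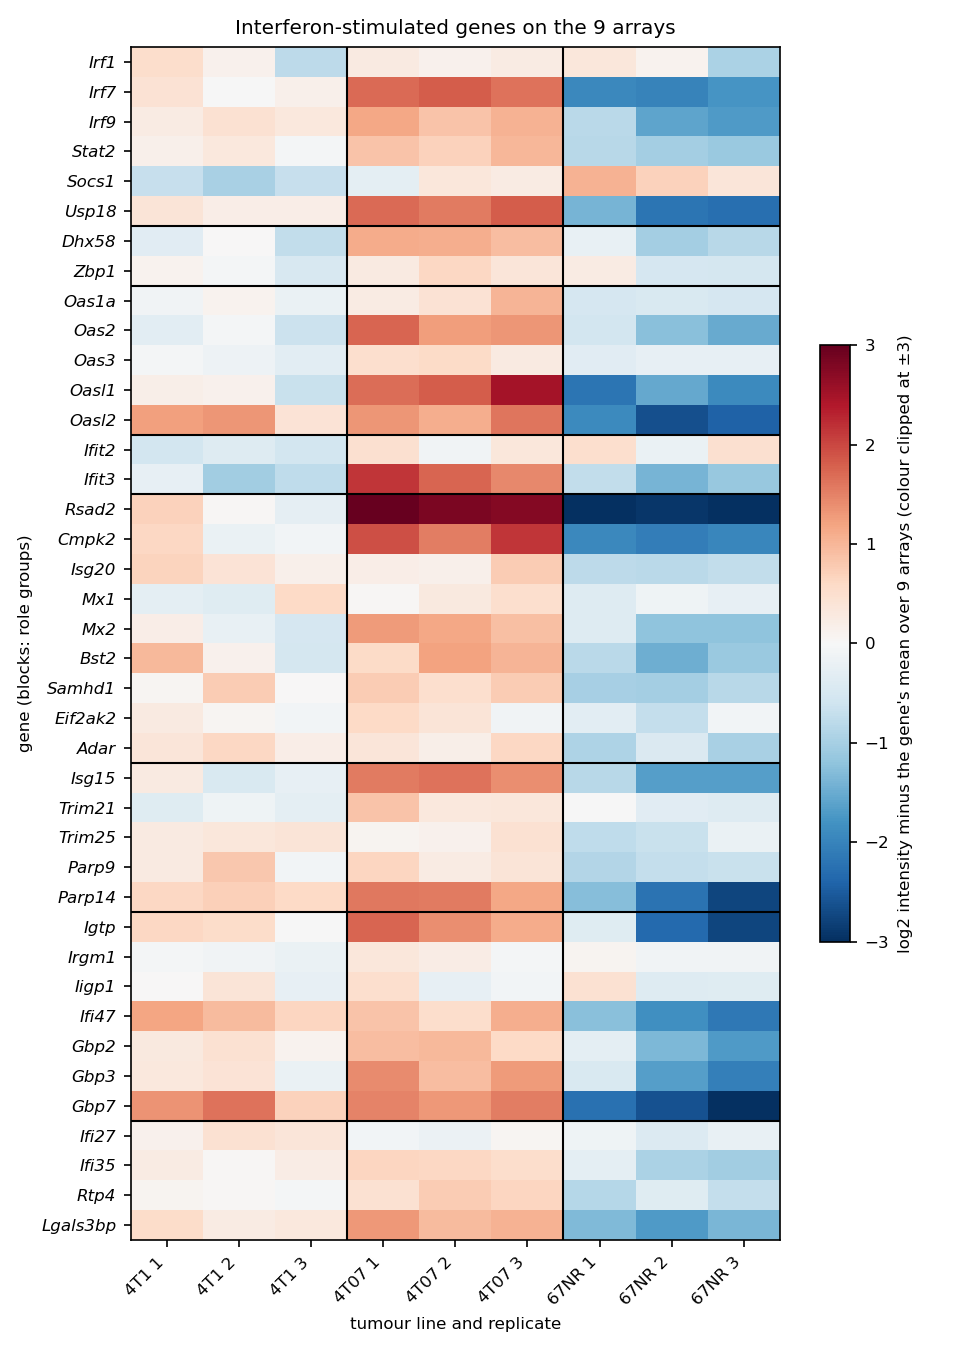
Heat map of the 40 interferon-stimulated genes (rows, in blocks by role) on the 9 arrays (columns, 3 per line). Color gives the log2 intensity minus the gene's mean over the 9 arrays; most rows are highest on the 4T07 arrays and lowest on the 67NR arrays, and the first 67NR array is less far below the mean than the others for the GTPases.

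One array stood a little apart from its group. The first 67NR array was the highest of the 3 for 27 of 40 members, with a median gap of 0.42 (log2) to the mean of the others. The third 4T1 array was the lowest of its line for 26 of 40 members. Each array was left out in turn: without the first 67NR array 28 genes were higher in 4T1 and the median of 4T07 against 67NR was 1.95 (log2), so that the differences from 67NR did not rest on it.

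Among the signaling and feedback genes, the components that drive the type I response were higher in both metastatic lines. Irf7, the transcription factor that amplifies interferon production, had log2 intensities of 6.96, 6.51 and 6.68 in 4T1, 8.21, 8.34 and 8.15 in 4T07 and 4.60, 4.51 and 4.75 in 67NR. It was detected on 0 of the 3 arrays of 67NR, and the other groups did not overlap. A bound was therefore computed against the higher of the probe's own value and the dimmest detected signal of each array, and on it Irf7 was at least 2.98-fold higher in 4T1 and at least 8.51-fold higher in 4T07 than in 67NR (adjusted p = 2.97e-07 and 2.82e-09). Between the metastatic lines the log2 fold change was -1.52 ± 0.15 (SE; adjusted p = 1.65e-05).

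Irf9, a DNA-binding partner of STAT2, had log2 intensities of 9.37, 9.58 and 9.43 in 4T1, 10.27, 9.98 and 10.16 in 4T07 and 8.32, 7.54 and 7.41 in 67NR. The log2 fold change was 1.70 ± 0.21 in 4T1 against 67NR (adjusted p = 4.27e-05) and 2.38 ± 0.21 in 4T07 against 67NR (2.72e-06). The smaller difference of 4T1 against 4T07 (-0.68 ± 0.21, adjusted p = 0.0333) was lost whichever of the 6 arrays of these lines was left out (0.0507 to 0.105) and on median-centered arrays (0.0668). Stat2 showed the same order, with 7.66, 7.84 and 7.45 in 4T1, 8.38, 8.21 and 8.51 in 4T07 and 6.68, 6.49 and 6.39 in 67NR. Its log2 fold change was 1.13 ± 0.15 in 4T1 and 1.85 ± 0.15 in 4T07 against 67NR, and -0.72 ± 0.15 in 4T1 against 4T07 (adjusted p = 0.00411).

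Usp18 removes ISG15 from proteins and also shuts down the type I receptor. It reached 10.15, 9.96 and 9.97 in 4T1 and 11.46, 11.31 and 11.57 in 4T07, against 8.37, 7.56 and 7.50 in 67NR, with no overlap between any of the lines. The log2 fold change was 2.21 ± 0.21 in 4T1 against 67NR (adjusted p = 4.14e-06), 3.64 ± 0.21 in 4T07 against 67NR (6e-08) and -1.42 ± 0.21 in 4T1 against 4T07 (0.000407).

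Socs1, the feedback inhibitor of JAK kinases, ran against most other members in the comparisons with 67NR, but not in 4T1 against 4T07. It measured 4.97, 4.69 and 4.97 in 4T1, where it was detected on 0 of the 3 arrays, 5.38, 6.01 and 5.91 in 4T07 and 6.71, 6.37 and 6.03 in 67NR. On the bound it was at least 2.49-fold lower in 4T1 than in 67NR (adjusted p = 0.000107) and at least 1.64-fold lower in 4T1 than in 4T07 (0.00789). The fall in 4T07 against 67NR (-0.60 ± 0.21, adjusted p = 0.0343) was small, and it was not past the threshold without 4T07 replicate 1 (adjusted p = 0.142), 67NR replicate 1 (0.124) or 67NR replicate 2 (0.078), nor on median-centered arrays (0.066).

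Irf1, a transcription factor induced early by interferon gamma, was among the brightest members and was not past the threshold in any comparison. It measured 14.19, 13.79 and 12.89 in 4T1, 13.93, 13.78 and 13.90 in 4T07 and 14.00, 13.76 and 12.72 in 67NR. The third arrays of 4T1 and 67NR were about 1 log2 unit below the rest. With this spread the 95% interval of the log2 fold change ran from -0.64 to 0.90 in 4T1 against 67NR and from -0.39 to 1.14 in 4T07 against 67NR. The interval of 4T07 leaves room for a rise of over 2-fold, and that of 4T1 for one just under 2-fold. None of its 5 probes passed the test.

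**Figure D2:**
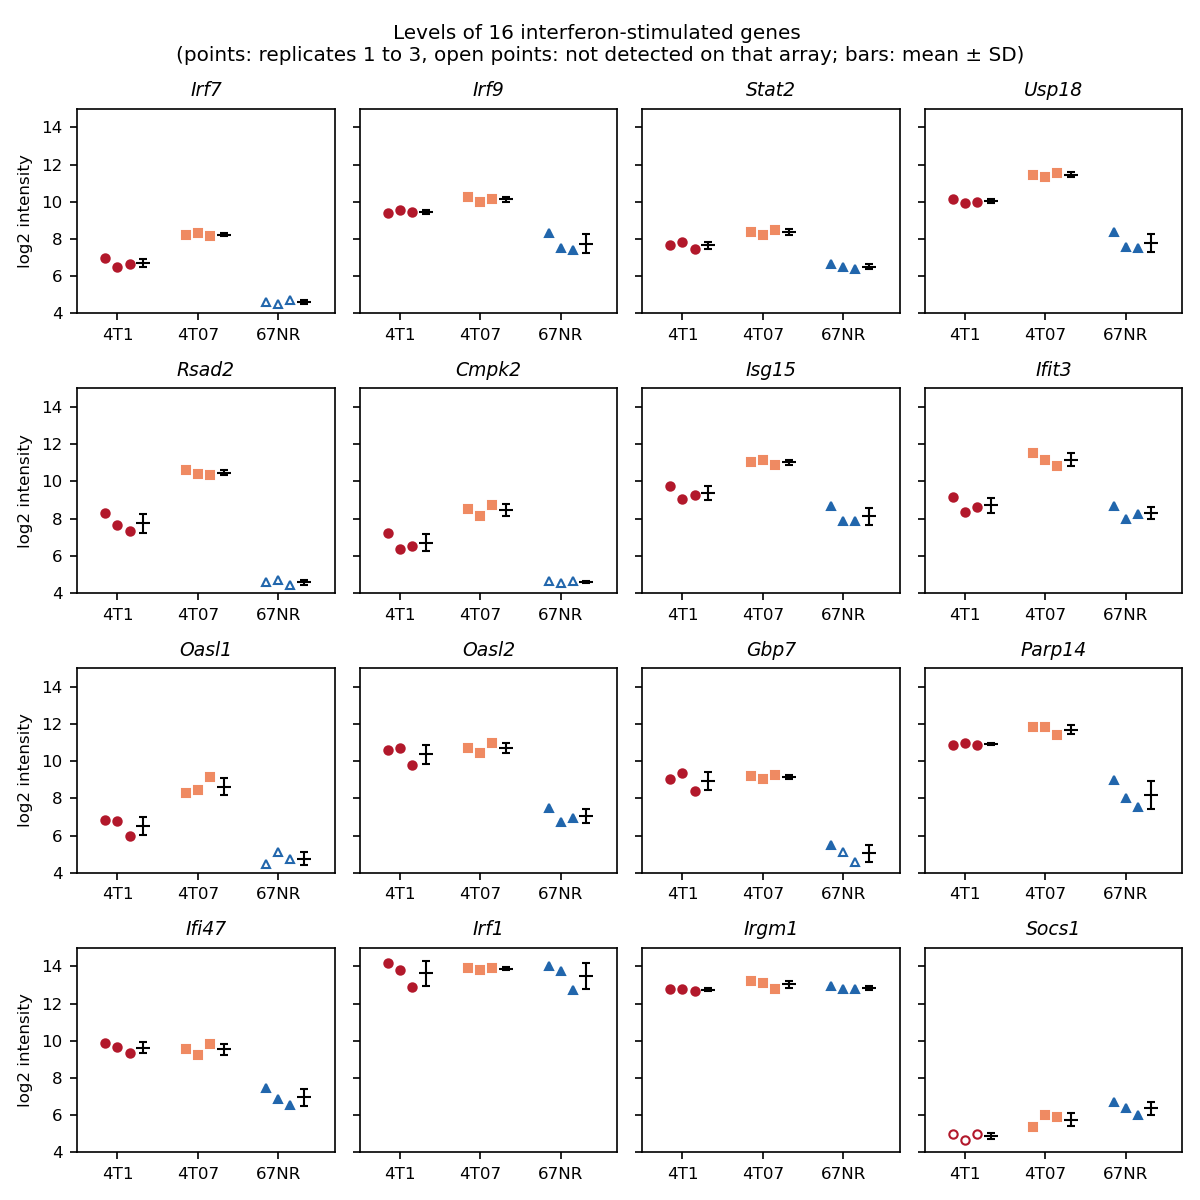
Log2 intensity of 16 interferon-stimulated genes on every array (points) with the mean and SD of each line (bars), 4T1, 4T07 and 67NR from left to right; open points were not detected. Irf7, Rsad2, Cmpk2 and Oasl1 are open on the 67NR arrays, Irf1 and Irgm1 lie at like levels in the 3 lines, and Socs1 is lowest in 4T1.

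Of the RNA and DNA sensors of the list, Dhx58 and Zbp1 had a kept probe. Dhx58, a partner of the RIG-I type sensors, measured 7.65, 8.01 and 7.25 in 4T1, 9.10, 9.07 and 8.92 in 4T07 and 7.77, 6.97 and 7.15 in 67NR. It was highest in 4T07, with a log2 fold change of 1.73 ± 0.23 against 67NR (adjusted p = 7.03e-05) and of -1.40 ± 0.23 in 4T1 against 4T07 (0.00085), while 4T1 and 67NR overlapped. Without the first 67NR array, Dhx58 was also higher in 4T1 than in 67NR (0.57, adjusted p = 0.0441). For Zbp1, a sensor of Z-form nucleic acid, the result depended on the probe. The brightest probe gave 0.12 ± 0.23 in 4T1 and 0.69 ± 0.23 in 4T07 against 67NR (adjusted p = 0.7 and 0.0273), and the probe with the largest differences gave 1.36 and 2.59. The 4T07 call on the brightest probe was lost when replicate 2 or 3 of 4T07 or of 67NR was left out (adjusted p of 0.0504 to 0.103).

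The 2-5A synthetases make the short adenylate chains that switch on RNase L, and their OASL relatives bind other targets. In 4T07 against 67NR 5 of 5 were higher, and in 4T1 against 67NR 3 of 5, beside 21.9% and 23.2% of all genes. Oas1a and Oas3 passed the filter on dim probes through the 4T07 arrays alone, so their calls as higher there add no support to the count. Oasl1 measured 6.82, 6.77 and 5.98 in 4T1, 8.31, 8.46 and 9.13 in 4T07 and 4.46, 5.11 and 4.73 in 67NR, where it was not detected. It was at least 2.60-fold higher in 4T1 and at least 11.2-fold higher in 4T07 than in 67NR (adjusted p = 0.000254 and 3.71e-07), and the log2 fold change of 4T1 against 4T07 was -2.11 ± 0.27 (0.000168). Its other probes gave log2 fold changes of 1.27 and 0.23 in 4T1 against 67NR, the second not past the threshold (adjusted p = 0.345 over 18856 probes). In 4T07 they gave 3.09 and 1.41.

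Oasl2 was high in both metastatic lines. Its log2 intensity was 10.60, 10.70 and 9.78 in 4T1, 10.70, 10.45 and 10.97 in 4T07 and 7.47, 6.72 and 6.93 in 67NR. The log2 fold change was 3.32 ± 0.26 in 4T1 and 3.66 ± 0.26 in 4T07 against 67NR (adjusted p = 8.24e-07 and 4.01e-07), and -0.34 ± 0.26 in 4T1 against 4T07 (0.366). Between 4T1 and 4T07 the result depended on the probe, since the other kept probe gave -0.89 ± 0.20 (adjusted p = 0.00647 over 18856 probes) and the mean of both -0.62 (0.0410). Oas2 had 6.72, 6.98 and 6.38 in 4T1, 8.79, 8.28 and 8.36 in 4T07 and 6.47, 5.79 and 5.51 in 67NR. It was chiefly a 4T07 gene, with a log2 fold change of 2.55 ± 0.25 in 4T07 against 67NR (5.86e-06) and -1.78 ± 0.25 in 4T1 against 4T07 (0.000283). The 0.77 ± 0.25 of 4T1 against 67NR (adjusted p = 0.0228) did not pass on the authors' log2 values (0.0564) or when 4T1 replicate 1 or 2 or 67NR replicate 2 or 3 was left out (0.0575 to 0.092). Oas1a and Oas3 were detected on 0 of the 3 arrays in both 4T1 and 67NR and on 3 of the 3 in 4T07, where they were at least 1.29-fold and 1.24-fold higher than in 67NR. Oas1a was called lower in 4T1 than in 4T07 (adjusted p = 0.0251). That call was lost on the authors' log2 values (0.0817) and without 4T07 replicate 3 or 4T1 replicate 1 or 3 (0.0556 to 0.0799). Probes of near-identical copies such as the Oas1 genes may share signal.

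The IFIT proteins, which bind viral RNA lacking host cap marks, behaved differently from one another. Ifit3 measured 9.15, 8.36 and 8.65 in 4T1, 11.55, 11.15 and 10.84 in 4T07 and 8.66, 8.0 and 8.26 in 67NR. Only the 4T07 arrays stood above the others, with a log2 fold change of 2.87 ± 0.25 in 4T07 against 67NR (adjusted p = 1.9e-06) and -2.46 ± 0.25 in 4T1 against 4T07 (2.06e-05), and 0.41 ± 0.25 in 4T1 against 67NR (0.189). Ifit2 measured 7.81, 7.97 and 7.81 in 4T1, 8.84, 8.27 and 8.72 in 4T07 and 8.87, 8.16 and 8.86 in 67NR. It was lower in 4T1 than in 67NR (-0.76 ± 0.21, adjusted p = 0.0104) on both of its probes, and 4T07 and 67NR overlapped (-0.02 ± 0.21, 0.957). On median-centered arrays the difference of 4T1 from 67NR did not pass (adjusted p = 0.0556). Ifit2 was also lower in 4T1 than in 4T07 (-0.75 ± 0.21, adjusted p = 0.0203). That call was lost on median-centered arrays (0.0534) and without replicate 1 or 3 of 4T07 or of 4T1 (0.0549 to 0.0802).

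Of the 9 direct antiviral effectors, 7 were higher in 4T1 and 8 in 4T07 than in 67NR, beside 23.2% and 21.9% of all genes. Rsad2 encodes viperin, which makes a chain-terminating nucleotide, and had the largest bound of any member. It reached 8.30, 7.63 and 7.33 in 4T1 and 10.62, 10.42 and 10.36 in 4T07, against 4.61, 4.69 and 4.43 in 67NR, where it was not detected. On the bound it was at least 6.10-fold higher in 4T1 and at least 40.0-fold higher in 4T07 than in 67NR (adjusted p = 2.17e-07 and 1.07e-09). Between 4T1 and 4T07 the log2 fold change was -2.71 ± 0.22 (3.22e-06).

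Cmpk2, a nucleotide kinase that works with viperin, followed it. Its values were 7.23, 6.39 and 6.51 in 4T1, 8.53, 8.14 and 8.74 in 4T07 and 4.65, 4.53 and 4.64 in 67NR, again undetected in the last. It was at least 2.96-fold higher in 4T1 and at least 10.0-fold higher in 4T07 than in 67NR (adjusted p = 9.94e-06 and 5.52e-08), and -1.76 ± 0.22 (log2) in 4T1 against 4T07 (0.000128). Mx2, a dynamin-like GTPase that traps viral particles, was 2.05 ± 0.24 higher in 4T07 than in 67NR (log2; adjusted p = 3.08e-05). Its 4T1 difference of 0.75 ± 0.24 (0.0228) was lost on the authors' log2 values (0.0607) and when 4T1 replicate 1 or 2 or 67NR replicate 2 or 3 was left out (0.0514 to 0.0956).

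Of the remaining effectors, 4 were higher in both metastatic lines than in 67NR and were not past the threshold in 4T1 against 4T07. Bst2 (tetherin, which holds budding virus at the membrane) had log2 fold changes of 1.33 and 2.07 in 4T1 and 4T07 against 67NR, Samhd1 (which depletes deoxynucleotides) of 1.22 and 1.62, Isg20 (an exonuclease) of 1.19 and 1.16 and Adar (which edits double-stranded RNA) of 1.18 and 1.16. Other probes of Adar gave 0.98, 0.53, 0.34 and 0.22 in 4T1, where 0.34 and 0.22 did not pass (adjusted p = 0.119 and 0.261 over 18856 probes). In 4T07 they gave 1.42, 1.04, 0.34 and 0.72, where 0.34 did not pass (0.125). In 4T1 against 4T07 Isg20 gave 0.03 ± 0.19 and Adar 0.02 ± 0.19, with 95% intervals of -0.38 to 0.45 and -0.39 to 0.43, but 2 other probes of Adar were lower in 4T1 (-0.50 and -0.51, adjusted p = 0.0313 and 0.0287). Bst2 gave -0.74 ± 0.32 and Samhd1 -0.40 ± 0.20 there, and they passed without 4T1 replicate 1 (Bst2, -1.13, adjusted p = 0.0118) and without 4T1 replicate 2 (Samhd1, -0.65, 0.0130). Eif2ak2, the RNA-activated kinase PKR, differed little, with 0.46 ± 0.21 in 4T1 and 0.67 ± 0.21 in 4T07 against 67NR (adjusted p = 0.0931 and 0.0224). The 4T07 call was lost without 4T07 replicate 1 (0.0917), 4T07 replicate 2 (0.0694) or 67NR replicate 2 (0.0963), and 4T1 passed without 67NR replicate 3 (0.0473). Mx1 was near background, detected on 1 array of 4T1, 2 of 4T07 and 0 of 67NR.

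ISG15 is a ubiquitin-like modifier that is conjugated to viral and host proteins. Isg15 measured 9.77, 9.04 and 9.26 in 4T1, 11.06, 11.14 and 10.89 in 4T07 and 8.67, 7.85 and 7.86 in 67NR. The 3 lines did not overlap, with log2 fold changes of 1.23 ± 0.24 in 4T1 against 67NR (adjusted p = 0.00124), 2.90 ± 0.24 in 4T07 against 67NR (1.43e-06) and -1.67 ± 0.24 in 4T1 against 4T07 (0.000334). Parp14, an ADP-ribosyltransferase, had 10.88, 10.96 and 10.86 in 4T1, 11.83, 11.81 and 11.42 in 4T07 and 8.98, 8.03 and 7.51 in 67NR, with log2 fold changes of 2.73 ± 0.29 and 3.52 ± 0.29 in 4T1 and 4T07 against 67NR (1.2e-05 and 1.51e-06). In 4T1 against 4T07 Parp14 gave -0.79 ± 0.29 with arrays that did not overlap (adjusted p = 0.0637). It passed there on the authors' log2 values (0.0128), with the replicate number as a block (0.0402) and without 67NR replicate 1 (0.00589) or 3 (0.0233). The other probe of Parp14 gave -0.29 (0.417 over 18856 probes). Its relative Parp9 was dim and was not detected in 67NR, so that it was at least 1.55-fold higher in 4T1 and at least 1.65-fold higher in 4T07. Of the ubiquitin ligases, Trim25, which activates RIG-I, was 0.88 and 0.77 higher (log2) in 4T1 and 4T07 than in 67NR, and Trim21, an antibody receptor inside the cell, was 0.75 higher in 4T07 with -0.02 ± 0.17 in 4T1.

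The immunity-related GTPases and guanylate-binding proteins attack the membranes around intracellular pathogens. Of 7 tested, 5 were higher in 4T1 and the same 5 in 4T07 than in 67NR (Igtp, Ifi47, Gbp2, Gbp3 and Gbp7). The shares of all genes were 23.2% and 21.9%. In 4T1 against 4T07, 1 of 7 was lower at the threshold, and the arrays of 4 of 7 did not overlap and were lower. The shares of all genes were 15.8% and 23.3%. By role, those lower in 4T1 than in 4T07 at the threshold were 5 of 6 signaling genes, 1 of 2 sensors, 4 of 5 synthetases, 2 of 2 IFIT genes, 3 of 9 effectors, 2 of 5 genes of the ISG15 group and 2 of 4 others, beside 15.8% of all genes. The synthetases counted include Oas1a and Oas3, which passed the filter on dim probes through 4T07 alone. Among these calls, those of Irf9, Oas1a, Ifit2 and Rtp4 were lost when some single arrays were left out. Differences between the role groups were not tested, and the spread of the 67NR arrays enters these calls through the shared estimate.

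Gbp7 was near background in 67NR and bright in the metastatic lines. It measured 9.07, 9.35 and 8.42 in 4T1, 9.20, 9.02 and 9.24 in 4T07 and 5.47, 5.11 and 4.57 in 67NR, where 1 of 3 arrays detected it. The log2 fold change was 3.89 ± 0.26 in 4T1 and 4.11 ± 0.26 in 4T07 against 67NR (adjusted p = 1.69e-07 and 1.24e-07), and -0.21 ± 0.26 in 4T1 against 4T07 (95% interval -0.78 to 0.35). As 2 of the 67NR arrays did not detect it, the size of the fold against 67NR is uncertain, and its other probe gave 2.27 in 4T1 and 2.71 in 4T07. For Ifi47 the arrays of the metastatic lines overlapped as well. It measured 9.90, 9.66 and 9.35 in 4T1, 9.57, 9.25 and 9.81 in 4T07 and 7.47, 6.87 and 6.56 in 67NR, with log2 fold changes of 2.67 ± 0.24 and 2.58 ± 0.24 in 4T1 and 4T07 against 67NR (2.39e-06 and 3.65e-06).

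Igtp was the member on which the 67NR arrays differed most. It measured 12.02, 11.95 and 11.39 in 4T1, 13.16, 12.80 and 12.52 in 4T07 and 11.04, 9.08 and 8.65 in 67NR, so that the first 67NR array lay 2.18 above the mean of the others. The log2 fold change was 2.20 ± 0.48 in 4T1 and 3.24 ± 0.48 in 4T07 against 67NR (adjusted p = 0.00269 and 0.000192), and without that array it was 2.92 and 3.96. Gbp2 and Gbp3 leaned the same way, with 12.90 and 10.67 on the first 67NR array against 11.49 to 11.85 and 9.08 to 9.49 on the others. Over all arrays Gbp2 was 1.40 ± 0.29 and 1.95 ± 0.29 higher in 4T1 and 4T07 than in 67NR, and Gbp3 was 1.56 ± 0.34 and 2.60 ± 0.34 higher (log2). Without the first 67NR array, Igtp (-1.04, adjusted p = 0.00488) and Gbp2 (-0.55, 0.0278) also passed in 4T1 against 4T07. With all arrays these fold changes were the same and did not pass (adjusted p = 0.133 and 0.186). The 67NR arrays enter the p-values of this comparison through the spread shared by the 3 lines. Gbp3 passed there with all arrays (-1.04 ± 0.34, 0.0399) and was lost on median-centered arrays (0.0592) and when any 1 of the 6 arrays of these lines or 67NR replicate 2 was left out.

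Irgm1, which regulates the other GTPases, gave different results on different probes. The brightest of its 3 probes measured 12.80, 12.77 and 12.66 in 4T1, 13.20, 13.09 and 12.81 in 4T07 and 12.95, 12.77 and 12.76 in 67NR, and gave -0.08 ± 0.14 in 4T1 and 0.20 ± 0.14 in 4T07 against 67NR. The other probes gave 1.60 ± 0.27 and 0.88 ± 0.26 in 4T1 (adjusted p = 0.000458 and 0.0165 over 18856 probes), and 2.19 ± 0.27 and 1.02 ± 0.26 in 4T07. Iigp1 was near background, with 1 detected array in each line.

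The other members were a mixed group. Lgals3bp, a secreted glycoprotein, was the clearest, with 11.89, 11.61 and 11.67 in 4T1, 12.65, 12.31 and 12.39 in 4T07 and 10.03, 9.65 and 9.98 in 67NR. Its log2 fold change was 1.84 ± 0.16 and 2.57 ± 0.16 in 4T1 and 4T07 against 67NR (adjusted p = 1.55e-06 and 9.5e-08). Ifi35 was 0.93 and 1.36 higher and Rtp4, an antiviral chaperone, 0.66 and 1.26 higher (log2). Rtp4 was detected on 1 of the 3 arrays of 67NR, so the size of its fold against 67NR is uncertain. Ifi27 was bright in all lines, and its log2 fold change was 0.57 ± 0.14 in 4T1 (0.00621) and 0.19 ± 0.14 in 4T07 against 67NR (0.322). In 4T1 against 4T07 it gave 0.38 ± 0.14 with arrays that did not overlap (adjusted p = 0.0658). There it passed on its other probe (0.50, adjusted p = 0.0449 over 18856 probes), on the authors' log2 values (0.0224) and with the mean of probes (0.0355).

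**Figure D3:**
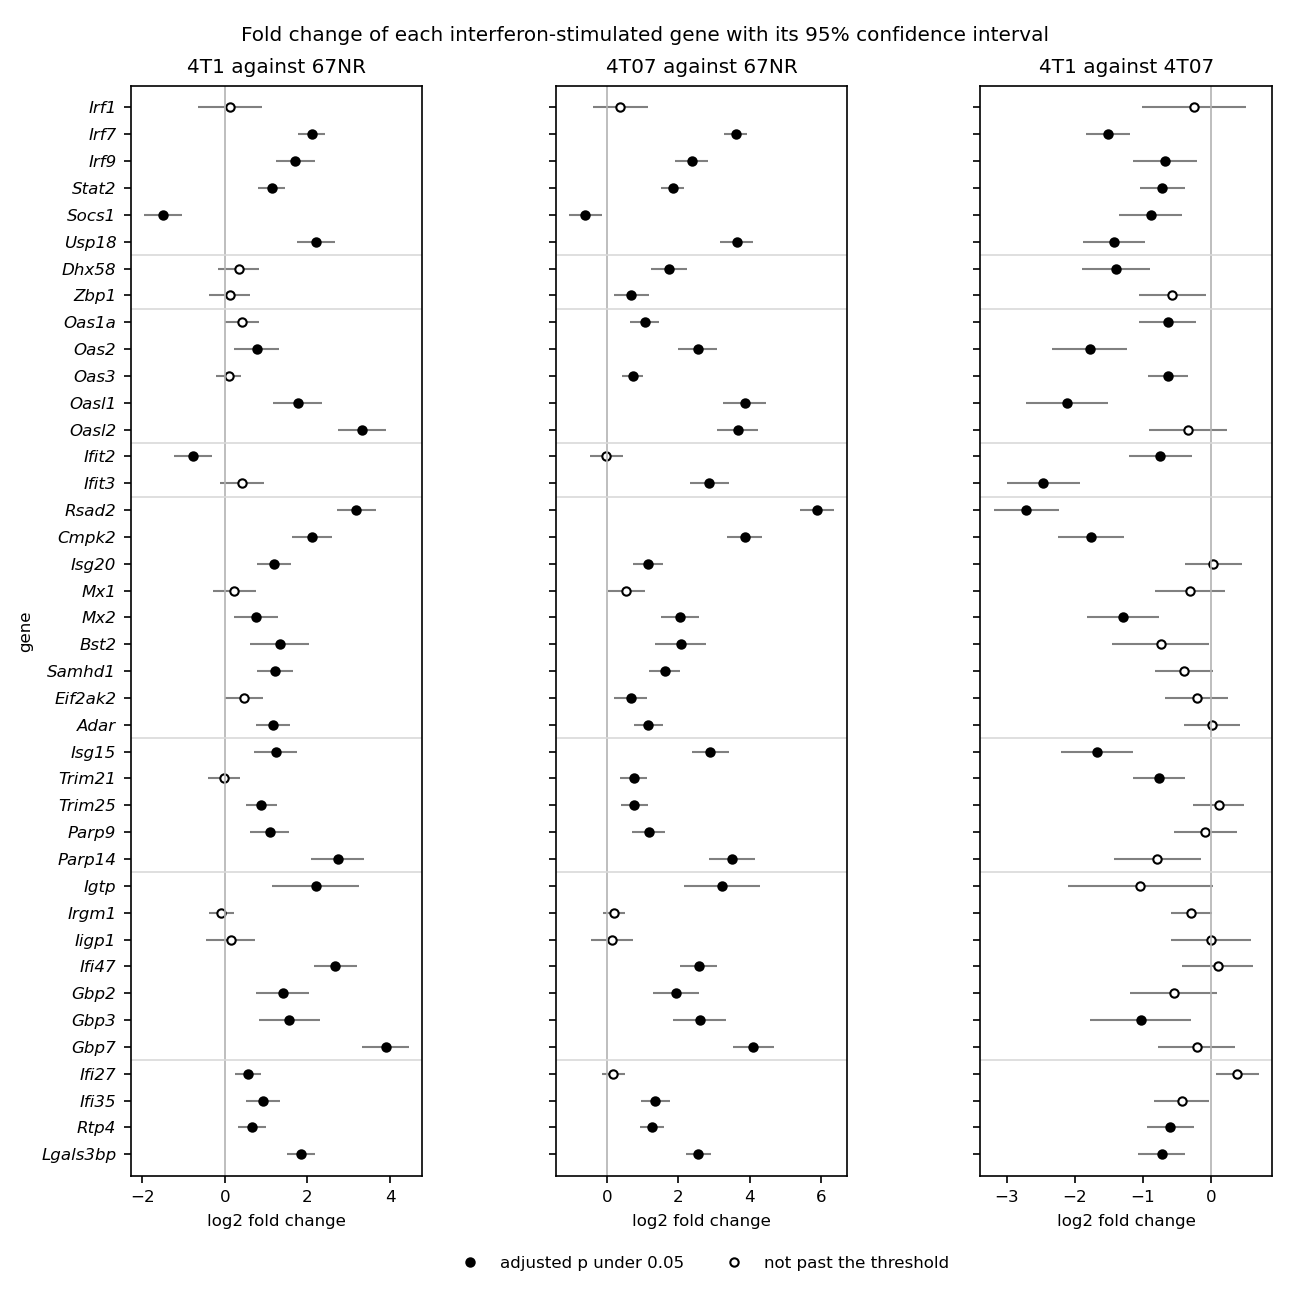
Log2 fold change of the 40 genes for the 3 pairs of lines, 1 panel each (points), with 95% confidence intervals (lines); filled points have an adjusted p under 0.05, and fitted values are drawn also where a line did not detect the gene. Rsad2 lies farthest to the right in 4T07 against 67NR, and 20 filled points lie left of 0 in 4T1 against 4T07 with none to the right.

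Several probes of a gene were set beside each other as a check within the array. Of the 20 members with several kept probes, calls differed between probes in 4 for 4T1 against 67NR (Adar, Irgm1, Oasl1 and Zbp1), in 3 for 4T07 against 67NR (Adar, Irgm1 and Trim25) and in 5 for 4T1 against 4T07 (Adar, Ifi27, Oasl2, Trim21 and Zbp1). No gene had probes called in opposite directions. Of the 70 kept probes, 44 were higher and 3 lower in 4T1, and 55 higher and 1 lower in 4T07, than in 67NR, beside 20.9% and 22.8%, and 18.7% and 20.7%, of all probes.

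**Figure D4:**
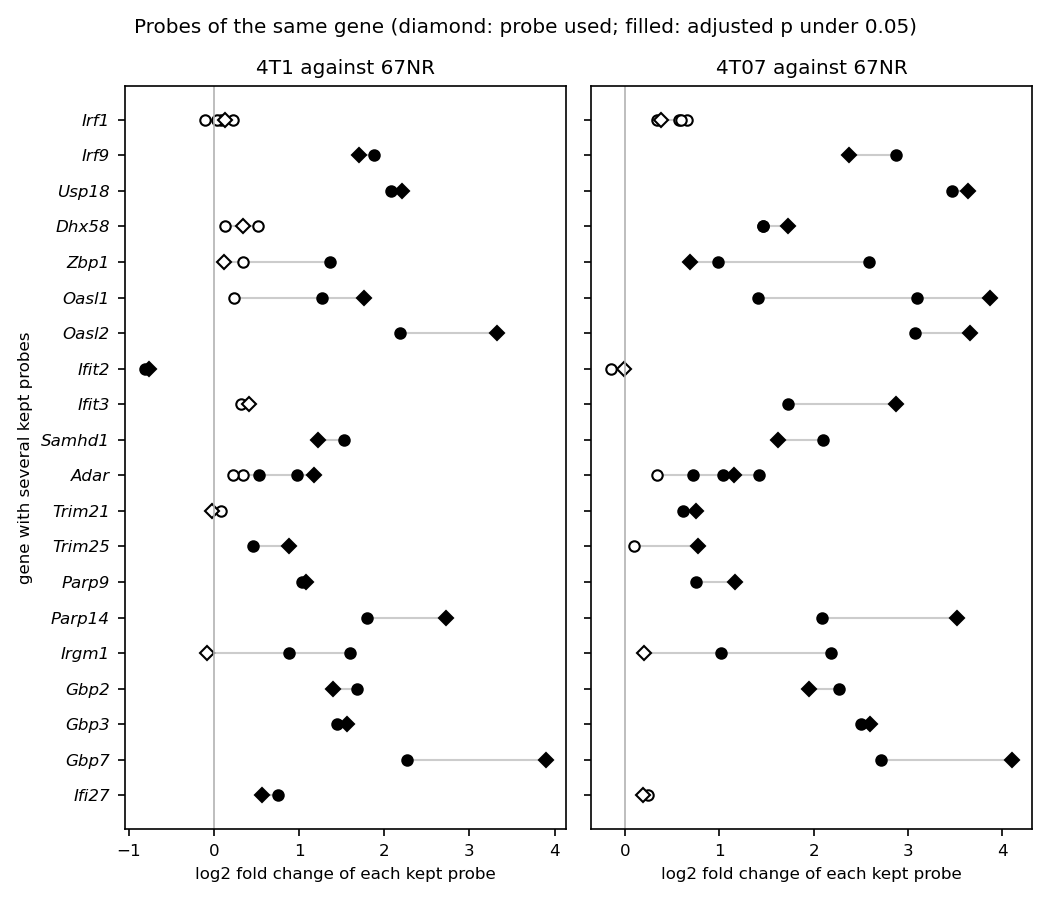
Log2 fold change of every kept probe (points) for the 20 members with several probes, in 4T1 and in 4T07 against 67NR; diamonds mark the probe used for the gene and filled symbols an adjusted p under 0.05. The diamond of Irgm1 lies at 0 in 4T1 while its other probes lie to the right.

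Beyond the members, genes of the pathway were described from lists written from general knowledge. The lists were chosen with earlier results of these data known, so their counts are not independent support for those of the members. Beside each list's counts against 67NR stand the shares of all genes, which were 23.2% higher and 26.6% lower in 4T1 and 21.9% and 23.4% in 4T07. Of the interferons, 5 had a probe that passed, with 0 higher and 1 lower in 4T1 and 1 higher and 2 lower in 4T07 than in 67NR. Ifnb1, encoding interferon beta, was detected on 0 of the 3 arrays of 4T1 (4.38, 4.62 and 4.65), on all 3 of 4T07 (5.41, 6.38 and 5.99) and on 0 of the 3 of 67NR (4.47, 4.74 and 4.47). It was at least 1.72-fold higher in 4T07 than in 67NR (adjusted p = 0.000289) and stayed dim in all lines. As it passed the filter on dim probes through the 4T07 arrays alone, this call is not independent of the filter. Ifng, encoding interferon gamma, was detected on 0 of the 3 arrays of 4T1 (4.83, 4.68 and 4.67), 1 of 4T07 (5.00, 4.67 and 5.08) and all 3 of 67NR (5.28, 5.54 and 5.31). It was at least 1.25-fold lower in 4T1 than in 67NR (0.00334), and the log2 fold change in 4T07 was -0.46 ± 0.15 (0.025). Ifnab, the brightest of the 5 probes, measured 7.22, 7.28 and 7.35 in 4T1, 7.08, 7.28 and 6.89 in 4T07 and 7.70, 7.70 and 7.24 in 67NR, and was lower in 4T07 than in 67NR (-0.46 ± 0.16, adjusted p = 0.0367). Ifna1 and Ifna6 passed in no comparison.

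Of 9 receptor and JAK-STAT genes tested, 3 were higher in 4T1 and 2 higher and 1 lower in 4T07 than in 67NR, with the shares of higher genes near those of all genes. Jak2, a kinase of the interferon gamma receptor, measured 11.42, 11.34 and 11.51 in 4T1, 10.14, 10.04 and 10.02 in 4T07 and 8.86, 8.80 and 8.39 in 67NR. It had the reverse order of the metastatic lines, with 4T1 above 4T07 by 1.36 ± 0.15 (log2, adjusted p = 4.09e-05). Jak1, another JAK kinase, was dimmer, with 6.04, 6.13 and 5.66 in 4T1, 5.26, 4.72 and 6.06 in 4T07 and 5.83, 6.29 and 6.67 in 67NR. It had the lowest log2 fold change of the list in 4T07 against 67NR (-0.92), with overlapping arrays. Ifnlr1, the lambda receptor found on epithelial cells, was detected in 4T1 only (6.42, 6.22 and 7.10), at least 2.71-fold higher than in 67NR (adjusted p = 5.97e-06). Ifnar2 (0.26 in 4T1, 0.39 in 4T07), Ifngr1 (0.19 and 0.21) and Ifngr2 (0.24 and 0.11) did not pass against 67NR, and Ifnar1 had no named probe.

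Among 11 sensors and kinases upstream, Sting1, the adaptor for DNA sensing, measured 7.50, 7.43 and 7.44 in 4T1, 7.90, 7.70 and 7.97 in 4T07 and 4.57, 4.69 and 4.68 in 67NR. It was detected on every array of the metastatic lines and on 0 of the 3 of 67NR, so that it was at least 4.96-fold higher in 4T1 and at least 6.55-fold higher in 4T07 (adjusted p = 5.47e-09 and 2.02e-09). Cgas, the DNA sensor that feeds Sting1, was lower in 4T1 than in 67NR (-1.13 ± 0.19, 0.000398). Irf5, a factor that drives inflammatory genes, was 0.69 ± 0.22 and 2.23 ± 0.22 higher (log2) in 4T1 and 4T07 than in 67NR. In all, 3 of 11 were higher and 2 lower in 4T1, and 4 higher and 2 lower in 4T07.

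Of 11 negative regulators, 2 were higher and 3 lower in 4T1 and 4 higher and 1 lower in 4T07 than in 67NR. Socs3, an inhibitor induced by STAT3, was -0.84 ± 0.24 in 4T1 and 0.67 ± 0.24 in 4T07 against 67NR (log2; adjusted p = 0.0111 and 0.037).

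**Figure D5:**
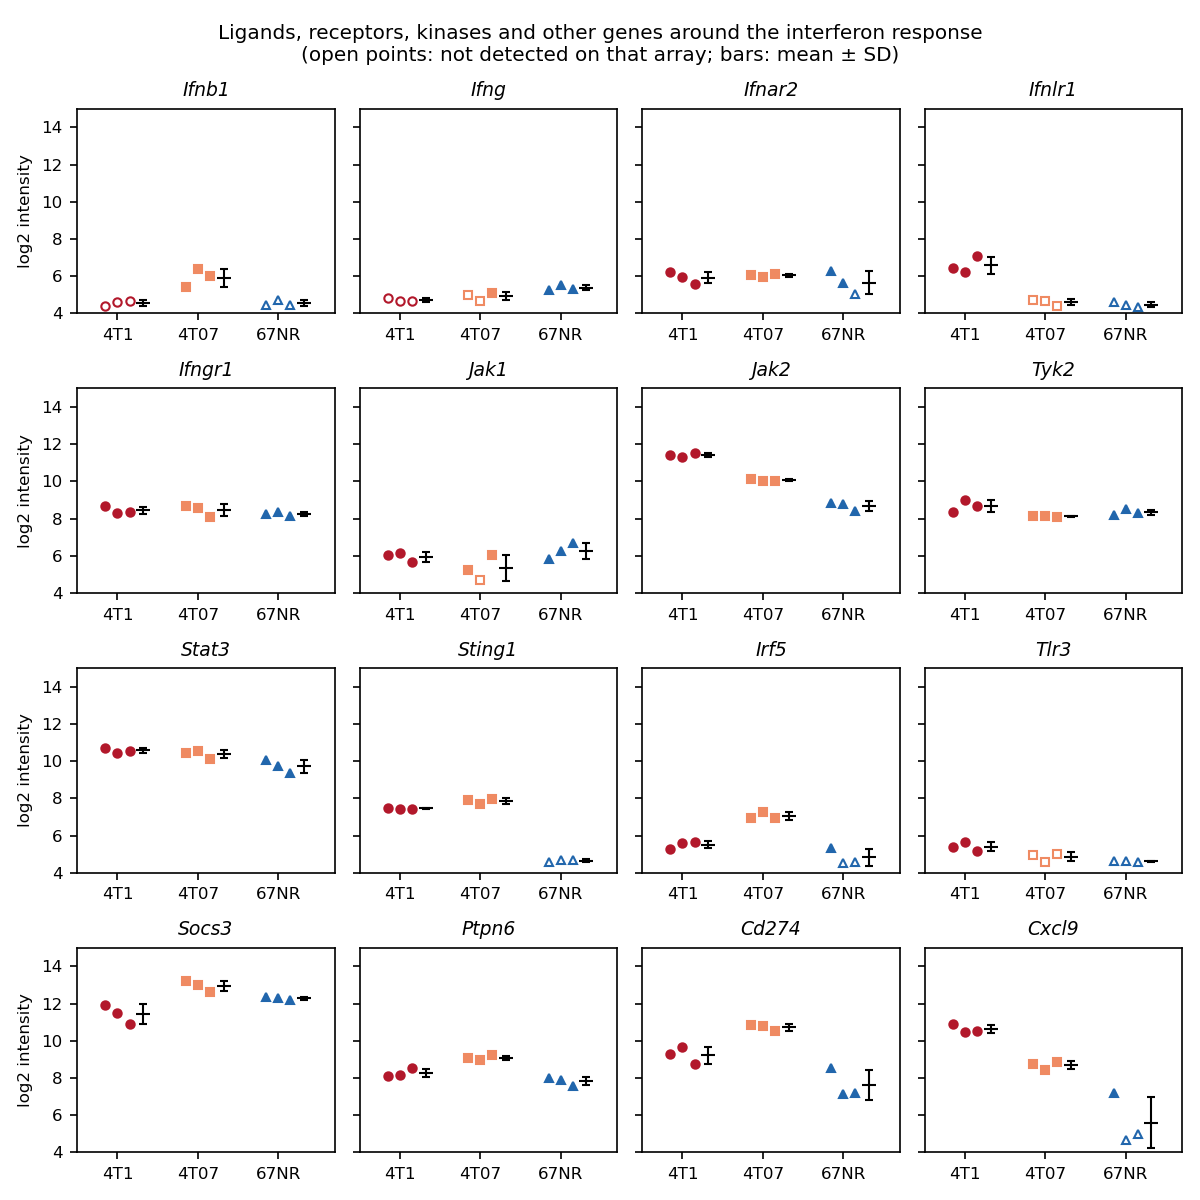
Log2 intensity of 16 genes around the interferon response on every array (points; open points were not detected) with the mean and SD of each line, 4T1, 4T07 and 67NR from left to right. Sting1 is open on the 3 arrays of 67NR and filled elsewhere, Ifnb1 is filled in 4T07 only, and Jak2 is highest in 4T1 and lowest in 67NR.

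Of a list of 52 further interferon-induced genes, 39 were tested. Against 67NR, 24 were higher and 6 lower in 4T1, and 28 higher and 2 lower in 4T07. In 4T1 against 4T07, 1 was higher and 20 were lower, beside 14% and 15.8% of all genes. Of the 39, Aim2 and Gbp5 passed the filter on dim probes through the 4T07 arrays alone and Ifi205 through the 4T1 arrays alone. Gvin1, a giant interferon-inducible GTPase, was at least 29.8-fold higher in 4T1 and at least 23.4-fold higher in 4T07 than in 67NR, where it was not detected (adjusted p = 4.32e-09 and 1.01e-08). Mov10, an RNA helicase, was likewise not detected in 67NR and was at least 8.41-fold and 10.6-fold higher in 4T1 and 4T07 (1.53e-09 and 8.5e-10). Dtx3l, the ligase partner of Parp9, measured 9.58, 10.16 and 9.69 in 4T1, 10.03, 9.62 and 10.16 in 4T07 and 5.67, 5.43 and 5.67 in 67NR. The chemokines that attract T cells went in opposite directions. Cxcl9 measured 10.91, 10.50 and 10.55 in 4T1, 8.76, 8.46 and 8.84 in 4T07 and 7.18, 4.67 and 4.97 in 67NR. It was higher in 4T1 than in 67NR (adjusted p = 5.86e-06), and no fold is given because the first 67NR array alone detected it there. Cxcl10 measured 10.15, 10.15 and 7.91 in 4T1, 10.85, 10.96 and 10.91 in 4T07 and 12.42, 11.86 and 11.28 in 67NR, with a log2 fold change of -2.45 ± 0.50 in 4T1 against 67NR (0.0017). The third 4T1 array lay far below the other two, and all 3 lay below every 67NR array. Cd274, encoding the checkpoint ligand PD-L1, was 1.61 ± 0.34 and 3.10 ± 0.34 higher in 4T1 and 4T07 than in 67NR (log2; 0.00217 and 1.7e-05).

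Members with and without each motif in their promoter window were set side by side. In 4T07 against 67NR the 15 tested genes that hold the ISRE core had a median log2 fold change of 1.95, and the 14 that do not had 2.00. In 4T1 against 67NR the medians were 1.13 and 1.46, and in 4T1 against 4T07 -0.74 and -0.42. For TTCNNNGAA, the medians of the 11 tested genes that hold it and the 18 that do not were 1.18 and 1.48 in 4T1 against 67NR, 1.16 and 2.57 in 4T07 against 67NR and -0.40 and -0.75 in 4T1 against 4T07. The ranges overlapped in each comparison, and no test was run on a split of the members.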

How the data were processed

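The authors deposited mean bead intensity per probe, on a linear scale without background subtraction, beside a detection p-value against the controls of that array. The authors' log2 values cover 22834 probes and are already quantile-normalized; the software behind them was not given in the sources used here. Here the intensities went through neqc of limma 3.58.1 in R 4.3.3, with an offset of 16 and the negative controls estimated from the p-values, which ends in quantile normalization. A probe was kept when 3 or more of the 9 arrays detected it (detection p under 0.05), which left 18856 of 45281. A gene detected in 1 line alone could pass only through that line, so its call as higher there is not independent of the filter. Each gene was represented by its brightest kept probe, and 10021 genes were fitted (lmFit, eBayes, 1 spread for the 3 lines) and adjusted by Benjamini-Hochberg (threshold 0.05). The offset reduces log2 differences of dim genes. For a line that detected a gene on no array, a fold is given as a bound.

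Gene names came from the platform annotation, and all 41 members with a probe matched an Entrez ID. The members, lists, markers and motifs were chosen with earlier results of these data known. Values on every array are given for the 5 members with the largest difference in each comparison whose arrays do not overlap, and for the signaling and feedback genes. The other genes given in full, and the 7 promoters, were chosen after their values were seen. The fit was tested on simulated data. Replicate numbers were not used to pair the arrays in the main fit, and deviations of same-numbered arrays correlated at -0.17 to 0.15. Between 67NR and 4T1, however, same-numbered arrays all correlated positively (0.05, 0.15 and 0.13) and the others negatively (-0.118 to -0.002). A fit with the replicate number as a block is given below. No 2 arrays held identical values. The number of arrays limits the precision.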

Additional observations from a re-analysis of the deposited data

How the results depend on the processing

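The counts of members higher against 67NR stayed within 1.5 times under every alternative run, and Irgm1 was the 1 member whose sign turned with a value past the threshold. With the mean of all kept probes it was 0.80 in 4T1 against 67NR (log2; adjusted p = 0.00339), in place of -0.08. Of 2508 results for single genes under the alternatives, 2358 kept their call, 102 lost it and 47 gained it, and some small differences that passed in neither fit changed sign (Adar, Parp9 and Trim21 with the mean of all kept probes, for example). The median log2 fold changes shrank with less background correction. In the order 4T1 to 67NR, 4T07 to 67NR and 4T1 to 4T07 they were 0.63, 1.13 and -0.42 on the authors' log2 values, 0.72, 1.26 and -0.46 without background correction, and 0.79, 1.37 and -0.48 with normexp at an offset of 50. With the stricter filter (all 3 arrays of some line at a detection p under 0.01) the 4T07 against 67NR median was 2.00. Members lower in 4T07 than in 67NR numbered 0 in place of 1 on the authors' values, without background correction, with normexp, with median centring, with only the 2 lines compared, with the replicate number as a block, with the methods' test before and after adjustment, and at a minimum of 2-fold. Members higher in 4T1 than in 4T07 numbered 1 in place of 0 on the authors' values, without background correction, with normexp, with the mean of probes, with the methods' test unadjusted, and when each kept probe was tested alone, an alternative chosen after seeing the data. Members lower in 4T1 than in 67NR numbered 1 in place of 2 with median centring, with the adjusted methods' test and at 2-fold. At 2-fold, 11 members differed in 4T1 against 4T07, and all 11 were lower. The cause of these changes was not tested.

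With each array left out in turn, 25 to 28 members were higher and 2 lower in 4T1 (27 to 30 in all), 31 to 34 higher and 0 to 1 lower in 4T07 (31 to 35 in all), and 0 higher and 16 to 25 lower in 4T1 against 4T07. The medians ranged over 0.98 to 1.25, 1.67 to 1.95 and -0.69 to -0.60, and 27 to 34 members kept the order 4T07, 4T1, 67NR. In the fit with the replicate block, 33 members were higher in 4T07 and 27 in 4T1 than in 67NR, and 22 were lower in 4T1 than in 4T07. Median centring moved all genes to 2524 higher and 2047 lower in 4T1, 2253 and 1861 in 4T07, and 1307 and 1279 in 4T1 against 4T07 (2327 and 2665, 2197 and 2344, and 1400 and 1585 with quantile normalization). A block for the slide could not be fitted, as the slides are not named. Dim members such as Mx1, Iigp1, Oas1a and Oas3 lie close to background, which limits what their differences can show.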
